A study of Mus musculus with 8 samples.

Results

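The circadian clock genes were examined in the dentate gyrus of mice that lacked Derlin-1 or Derlin-2 in the nervous system. They are the 10 genes Per1, Per2, Per3, Cry1, Cry2, Arntl, Clock, Nr1d1, Nr1d2 and Dbp, taken as every array probe that carries their symbol, which gave 26 of the 56605 probes and 10 of the 26894 gene symbols. Tissue came from male C57BL/6 mice killed at 8 to 9 weeks of age. The control groups carried floxed alleles of Derl1 or Derl2 (Derlin-1 control, Derlin-2 control), and the KO groups (Derlin-1 KO, Derlin-2 KO) came from crosses of these floxed mice with mice bearing Cre under the nestin promoter, which is active in the neural lineage. Each group had 2 arrays. The controls are floxed mice and no group with Cre alone is among the arrays used here, so an effect of Cre itself cannot be told apart from that of the deletion. Groups follow the titles, since the KO samples' genotype entries give the floxed parent. Nothing in the labels says whether the arrays of a group are RNA of separate animals, so p-values measure the spread between these samples. The mice were housed under a light/dark cycle, and neither the labels nor the study's methods give the hour of dissection. The comparison therefore asks whether KO and control tissue, and the tissue of both lines, had like levels of genes whose RNA varies with the time of day.

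The mammalian clock is a feedback loop of transcription. CLOCK and ARNTL (BMAL1) bind E-box sequences and activate the Per and Cry genes, whose proteins then repress CLOCK and ARNTL, and a second loop runs through Nr1d1 and Nr1d2 (REV-ERB alpha and beta), which repress Arntl. Dbp is an output of the loop that in turn activates genes with D-box sequences. In most mouse tissues Arntl RNA peaks near the opposite time of day from Dbp and the Per genes. Per1 also responds to neuronal activity and to glucocorticoids, apart from the loop.

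Promoter sequence was searched for these elements in RefSeq windows of 250 bases before and 50 bases after the start (build GRCm38.p6), and 9 of the 10 genes had a window. The E-box CACGTG was in 7.15% of all 32851 windows, the variant CACGTT in 4.68%, the D-box TTATGTAA in 0.938% and its variant TTACGTAA in 0.119%. All were searched on both strands, and no 2 of the matches shown overlap. The REV-ERB and ROR motif AGGTCA was in 16.3% of windows and in those of 4 clock genes. The cyclic AMP response element TGACGTCA was in 1.79% of windows. Neither it nor TTACGTAA was found in the window of a clock gene. Stretches are shown for Cry1, Per1 and Nr1d1, whose KO and control arrays did not overlap in one of the lines, and for Per3, all probes of which differed between the lines. The E-box or D-box match is in capitals, and each stretch is read 5′ to 3′ on the strand of its gene.
Cry1 (chr10:85185094-85185148, minus strand): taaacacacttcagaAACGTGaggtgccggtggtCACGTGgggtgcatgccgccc
Per1 (chr11:69098763-69098808, plus strand): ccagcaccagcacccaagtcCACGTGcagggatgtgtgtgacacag
Nr1d1 (chr11:98775382-98775423, minus strand): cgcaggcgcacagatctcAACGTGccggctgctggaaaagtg
Per3 (chr4:151044804-151044882, minus strand): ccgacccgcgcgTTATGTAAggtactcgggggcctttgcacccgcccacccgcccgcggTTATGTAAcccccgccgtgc
Cry1 held the variant E-box on the opposite strand and the full E-box downstream of it, and Per3 held the D-box at 2 places. A match of letters is no evidence that a factor is bound there.

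Signal was well above background for 67.5% to 70.3% of probes on each array, and no probe was saturated. The filter asked for both arrays of at least 1 group to be well above background, and 39937 probes of 19893 genes passed it, among them all 26 clock probes. All 6 granule neuron markers, among them Prox1 and C1ql2, were well above background on all 8 arrays, as were all 4 markers each of astrocytes, oligodendrocytes, microglia, endothelium and CA pyramidal neurons, so the tissue held other cells besides granule neurons. The brightest Derl1 probe read 10.86 and 10.76 (log2 normalized signal) in Derlin-1 control and 10.56 and 10.65 in Derlin-1 KO. The second Derl1 probe went the other way, at 7.36 and 7.36 in Derlin-1 control and 7.93 and 7.70 in Derlin-1 KO (0.46, SE 0.12), so the Derl1 probes do not check the labels of that line. For Derl2 the brightest probe gave 11.36 and 11.22 in Derlin-2 control and 10.63 and 10.65 in Derlin-2 KO, and the second Derl2 probe was lower there as well (-1.05, SE 0.14). None of these differences passed after adjustment with limma. Where these probes lie relative to the deleted exons is not given in the sources used here. Each line was on a slide of its own, so line and slide cannot be told apart, whereas KO and control of a line shared a slide and a scan.

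No clock gene passed the test in either line. With limma and Benjamini-Hochberg adjustment, 0 of the 10 genes were called in Derlin-1 KO against control, where 0% of all genes were called, and 0 of 10 in Derlin-2 KO against control, where 0.0353% were. At an unadjusted p below 0.05 the counts were 1 of 10 in the Derlin-1 line, against 4.23% of all genes, and 0 of 10 in the Derlin-2 line, against 4.64%. The median log2 difference of the 10 genes, KO minus control, was -0.048 for Derlin-1 (-0.020 over all genes) and 0.030 for Derlin-2 (0.0078 over all genes). In Derlin-1 KO 2 genes were higher and 8 lower, and in Derlin-2 KO 6 were higher and 4 lower. KO arrays lay below both controls for 1 gene in the Derlin-1 line, Cry1, against 17.9% of all genes, and for 2 genes in the Derlin-2 line, Per1 and Nr1d1, against 14.6%. No clock gene had both KO arrays above both controls in either line (16.2% and 17.9% of all genes did). These counts rest on the brightest probe of each gene over the 8 arrays. A lower count of a cell type and less RNA per cell cannot be told apart in bulk tissue.

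**Figure D1:**
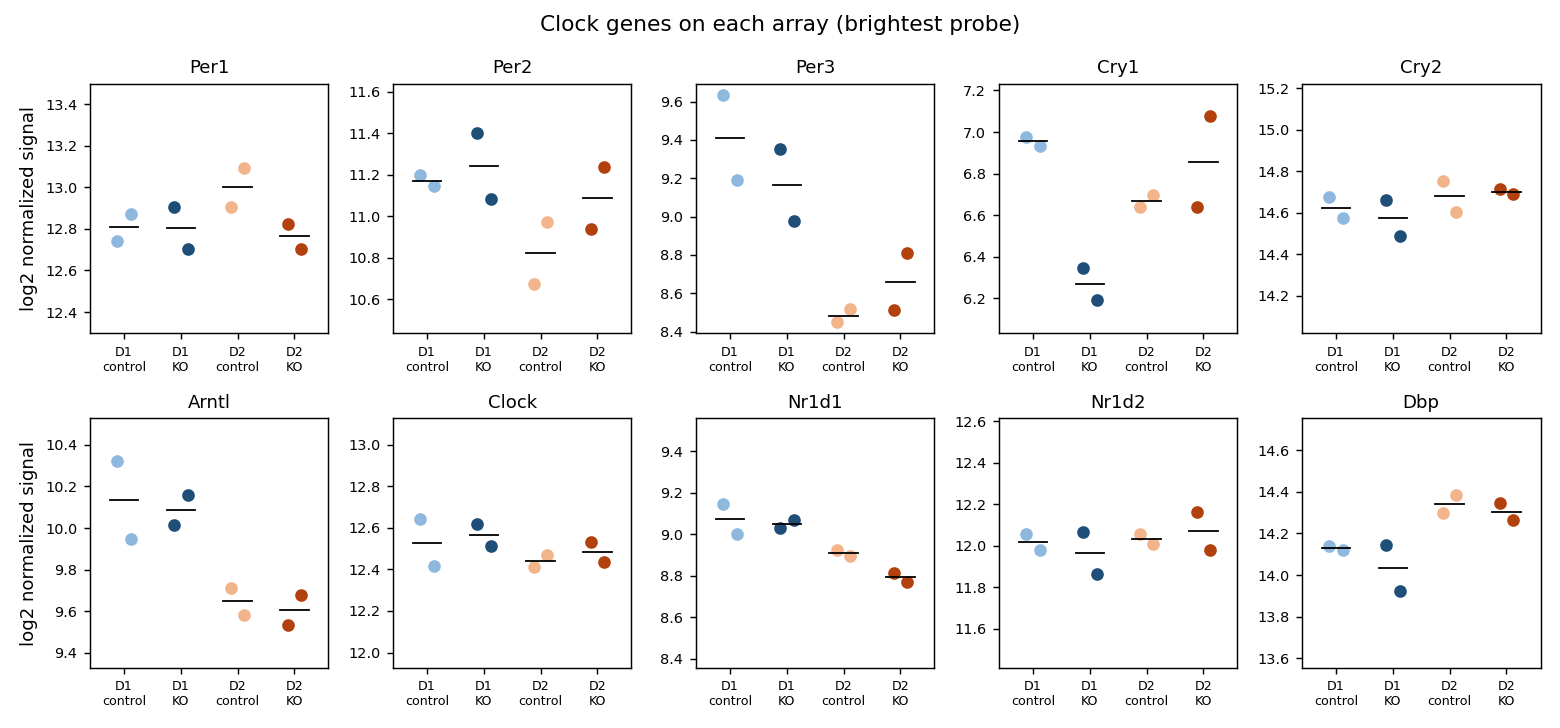
Log2 normalized signal (y axis) of the brightest probe of each clock gene on the 2 arrays of each group (points) with the group mean (line). D1 and D2 are the Derlin-1 and Derlin-2 lines; each panel has its own y range of at least 1.2 log2 units. Cry1 is separated between control and KO in D1, and Per3 between the lines.

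Dbp, the clock output with a D-box binding product, is among the most strongly cycling transcripts of many tissues. It read 14.14 and 14.12 in Derlin-1 control and 14.15 and 13.92 in Derlin-1 KO. The Derlin-2 arrays gave 14.30 and 14.38 in control and 14.34 and 14.27 in KO. The groups overlapped in both lines. The difference, KO minus control, was -0.09 (SE 0.11) for Derlin-1 and -0.04 (SE 0.11) for Derlin-2. As ratios, the 95% intervals ran from 0.773 to 1.13 and from 0.805 to 1.18. The second Dbp probe differed by -0.06 and -0.07.

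Nr1d1 and Nr1d2 encode the REV-ERB repressors. Nr1d1, which has a single probe, read 9.15 and 9.00 in Derlin-1 control and 9.03 and 9.07 in Derlin-1 KO, and the groups overlapped. In the Derlin-2 line it read 8.92 and 8.90 in control and 8.82 and 8.77 in KO, so that both KO arrays were the lower ones. That difference was -0.12 (SE 0.10, unadjusted p = 0.28, adjusted p = 0.999, limma), with an interval from -0.36 to 0.12. Nr1d1 also had the tightest replicates of the clock genes, with a pooled SD within groups of 0.056 against a median of 0.144 over all genes. Nr1d2 read 12.06 and 11.98 in Derlin-1 control, 12.07 and 11.86 in Derlin-1 KO, 12.06 and 12.01 in Derlin-2 control, and 12.16 and 11.98 in Derlin-2 KO. Its groups overlapped in both lines, and its 3 probes differed by between -0.05 and 0.07 in the Derlin-1 line and by at most 0.06 in the Derlin-2 line.

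The Period genes encode the PER proteins of the repressor complex. Per1 read 12.74 and 12.87 in Derlin-1 control and 12.91 and 12.70 in Derlin-1 KO, a difference of -0.0026 (SE 0.13). In the Derlin-2 line it read 12.91 and 13.09 in control and 12.82 and 12.70 in KO. Both Derlin-2 KO arrays thus lay below both controls, by -0.24 in the mean (SE 0.13, 95% interval -0.55 to 0.08, unadjusted p = 0.114, adjusted p = 0.979, limma). This probe lies in the last eighth of the array's rows, which holds 12.4% of the probes kept. The second Per1 probe stayed below the level called well above background on all 4 arrays of the Derlin-1 line, so no fold is given for it there. In the Derlin-2 line it differed by -0.27 (SE 0.29) with overlapping groups, and was well above background on 2 control arrays and 1 KO array.

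Per2 read 11.20 and 11.15 in Derlin-1 control and 11.40 and 11.09 in Derlin-1 KO. The Derlin-2 arrays gave 10.67 and 10.97 in control and 10.94 and 11.24 in KO. The groups overlapped in both lines, with differences of 0.07 and 0.27 (SE 0.18 for both). A dimmer Per2 probe differed by -0.33 and 0.12, so the probes had opposite signs in the Derlin-1 line. Per3 read 9.63 and 9.19 in Derlin-1 control, 9.35 and 8.98 in Derlin-1 KO, 8.45 and 8.52 in Derlin-2 control, and 8.51 and 8.81 in Derlin-2 KO. The KO and control arrays of Per3 overlapped in each line, and the differences were -0.25 and 0.18 (SE 0.21 for both). The other Per3 probes differed by 0.12 and 0.02 in the Derlin-1 line and by -0.04 and 0.15 in the Derlin-2 line.

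Cry1 and Cry2 encode the cryptochromes, which join the PER proteins in the repressor complex. Cry1 had the largest difference of the 10 genes in the Derlin-1 line. It read 6.97 and 6.94 in Derlin-1 control and 6.35 and 6.19 in Derlin-1 KO, so that both KO arrays lay below both controls. The difference was -0.69 (SE 0.16, 95% interval -1.08 to -0.29, unadjusted p = 0.00509, limma), which as a ratio is an interval from 0.474 to 0.815. It did not pass after adjustment over all probes kept (adjusted p above 0.99, limma). With normexp background correction in place of the scanner's own, the difference was -0.42.

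In the Derlin-2 line Cry1 read 6.64 and 6.70 in control and 6.64 and 7.08 in KO, a difference of 0.19 (SE 0.16) with overlapping groups. The Derlin-1 effect minus the Derlin-2 effect was -0.88 (SE 0.23, unadjusted p = 0.0082, adjusted p = 0.706, limma). By this test of the difference 1 of the 10 clock genes had an unadjusted p below 0.05, against 4.49% of all genes, and 0 passed after adjustment, against 0.00505%. The second Cry1 probe read 5.85 and 6.21 in Derlin-1 control and 5.84 and 5.46 in Derlin-1 KO. It was lower in the same direction but less clearly, by -0.38 (SE 0.28, unadjusted p = 0.223, limma), and differed by -0.16 in the Derlin-2 line.

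The 3 probes of Cry2 did not move together. Its brightest probe read 14.67 and 14.58 in Derlin-1 control and 14.66 and 14.49 in Derlin-1 KO, a difference of -0.05 (SE 0.11), and it differed by 0.02 in the Derlin-2 line. The probe A_55_P2721990 read 9.51 and 9.74 in Derlin-1 control and 10.23 and 10.08 in Derlin-1 KO, which is 0.53 higher (SE 0.19, unadjusted p = 0.0331). In the Derlin-2 line the same probe read 9.54 and 9.12 in control and 9.18 and 8.86 in KO, a difference of -0.31. The probe A_55_P1953708 was 0.36 higher in Derlin-1 KO (SE 0.17, unadjusted p = 0.0736), with both KO arrays above both controls, and differed by -0.15 in the Derlin-2 line. Neither dimmer Cry2 probe passed after adjustment with limma. Over the 26 clock probes, 3 had an unadjusted p below 0.05 in the Derlin-1 line, against 4.69% of all probes, and 0 in the Derlin-2 line, against 5.49%. The 3 are the brightest of Cry1, A_55_P2721990 of Cry2 and the second Per1 probe. That Per1 probe compares readings that were not well above background on any Derlin-1 array. Of the 26 probes 0 were called after adjustment in either comparison (0% and 0.0352% of all probes) or in the difference between them (0.00503%). Both KO arrays lay above both controls for 4 probes and below them for 4, the second Per1 probe included, in the Derlin-1 line (17.9% and 17.8% of all probes), and for 1 and 2 probes in the Derlin-2 line (17% and 14.2%).

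**Figure D2:**
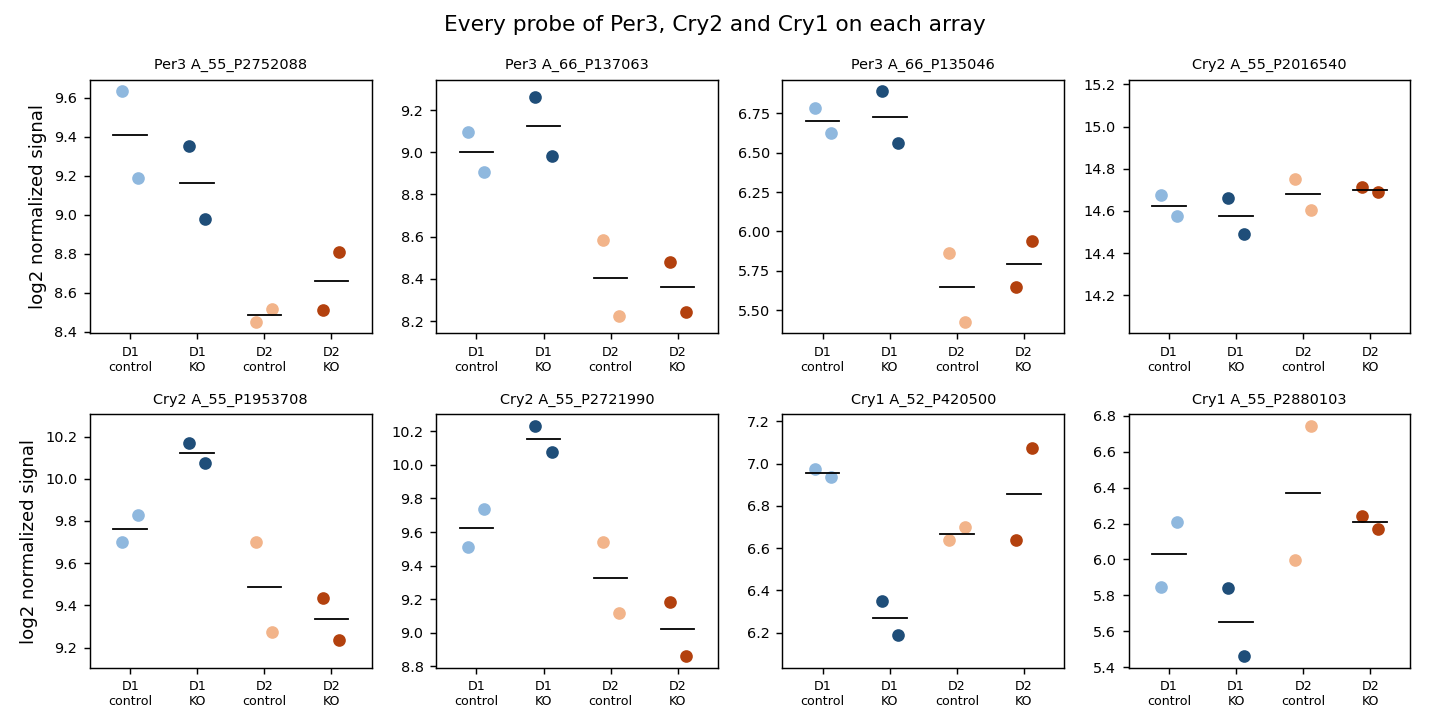
Log2 normalized signal (y axis) of each probe of Per3, Cry2 and Cry1 on the 2 arrays of each group (points) with the group mean (line); D1 and D2 are the Derlin-1 and Derlin-2 lines. All 3 Per3 probes are higher in D1, both Cry1 probes are lower in D1 KO than in its controls, and the dimmer Cry2 probes differ from the brightest one, which stays between 14.49 and 14.75.

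Arntl and Clock encode the activators. Arntl read 10.32 and 9.95 in Derlin-1 control, 10.01 and 10.16 in Derlin-1 KO, 9.71 and 9.58 in Derlin-2 control, and 9.53 and 9.68 in Derlin-2 KO. KO and control overlapped in both lines, with differences of -0.05 and -0.04 (SE 0.16 for both). Of its dimmer probes, A_66_P127371 was lower in both Derlin-1 KO arrays (-0.20, SE 0.12). The probe A_55_P2735445 had an outlier spot on Derlin-2 control 2, so its Derlin-2 difference of -0.30 rests on 1 control array. The probe A_52_P24690 read 4.41 and 2.98 in Derlin-2 control and 3.53 and 7.17 in Derlin-2 KO, with 1 array of each group well above background.

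Clock read 12.64 and 12.42 in Derlin-1 control, 12.62 and 12.51 in Derlin-1 KO, 12.41 and 12.47 in Derlin-2 control, and 12.53 and 12.44 in Derlin-2 KO. Its groups overlapped, and the differences were 0.03 and 0.04 (SE 0.12 for both). Among its dimmer probes, A_52_P279391 was higher in both Derlin-1 KO arrays (0.37, SE 0.24) and A_52_P334670 in both Derlin-2 KO arrays (0.21, SE 0.12). The fourth was well above background on 3 of the 8 arrays.

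**Figure D3:**
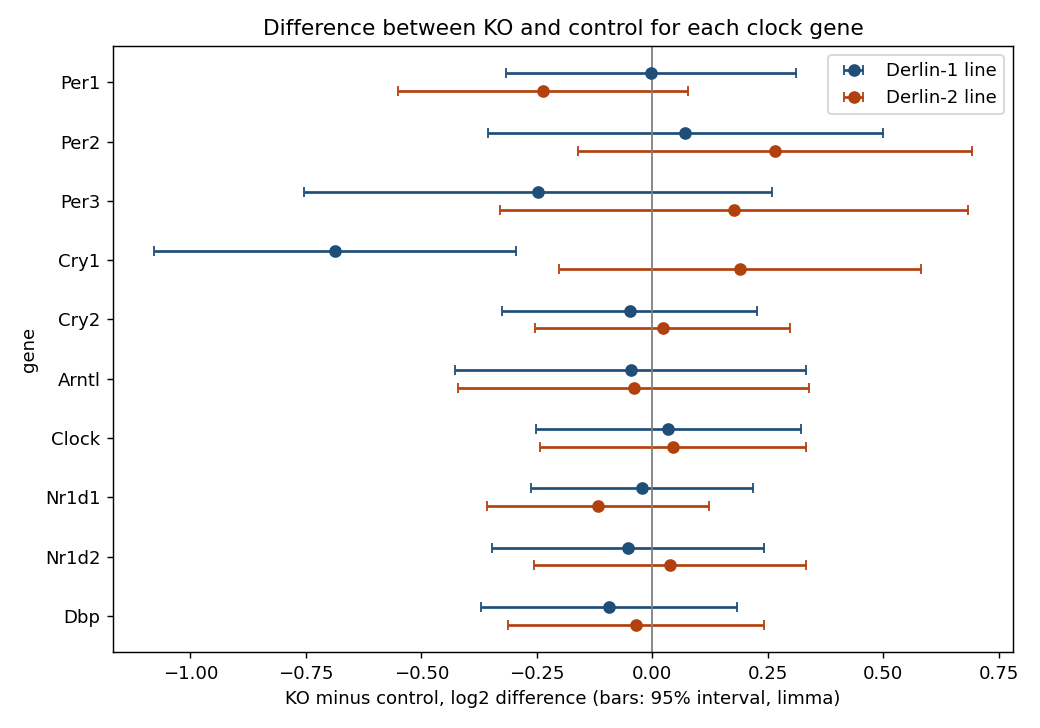
KO minus control (x axis, log2 difference) of the brightest probe of each clock gene (y axis) in the Derlin-1 line (dark blue) and the Derlin-2 line (dark orange), with 95% intervals from limma that are not adjusted for the number of genes. Only the interval of Cry1 in the Derlin-1 line, -1.08 to -0.29, leaves out 0.

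Because the arms of the loop peak at different times of day, an index was formed on each array from the mean deviation of Per1, Per2, Per3, Nr1d1, Nr1d2 and Dbp from the mean of the line, less that of Arntl and Clock. It was -0.07 and 0.13 in Derlin-1 control and 0.09 and -0.14 in Derlin-1 KO. It was -0.07 and 0.06 in Derlin-2 control and 0.0060 and 0.0070 in Derlin-2 KO. The groups overlapped in both lines. The KO minus control difference of the index was -0.052 for Derlin-1 and 0.013 for Derlin-2, both below the pooled SD between replicates of 0.118. With 1 array left out in turn the difference ran from -0.17 to 0.065 for Derlin-1 and from -0.051 to 0.077 for Derlin-2, so its sign rests on single arrays. With the mean over all probes of a gene in place of the brightest, the differences were -0.18 and -0.31, the second of which includes the reading of 7.17 of the dim Arntl probe above.

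**Figure D4:**
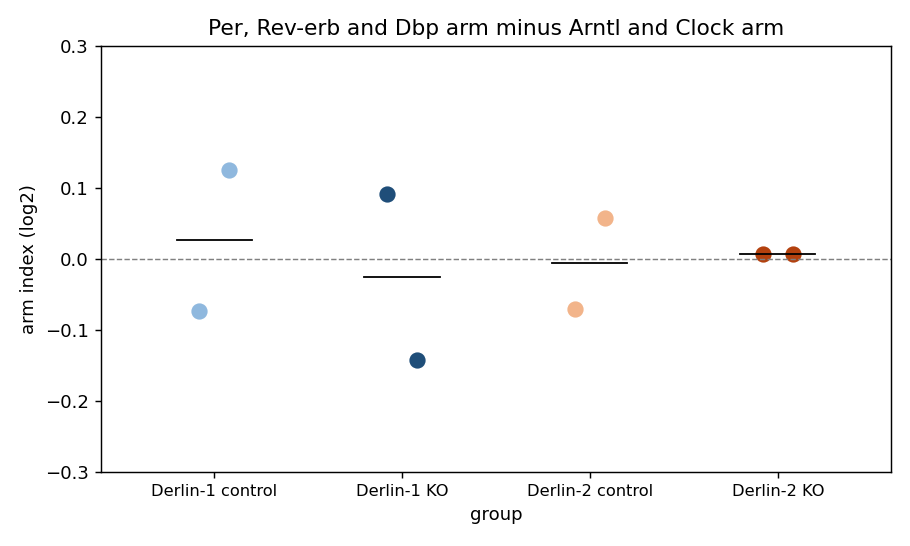
Index of clock arms (y axis, log2 units) on each array (points) in each group (x axis), with the group mean (line). The KO arrays lie within the range of the controls in the Derlin-2 line, and the groups overlap in the Derlin-1 line.

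Over all probes, arrays of different lines correlated less (r from 0.975 to 0.985) than KO and control arrays of a line (0.986 to 0.992). A wider gap between the lines than between KO and control, seen for some clock genes, is thus not particular to them. All 4 arrays of the Derlin-1 line lay above all 4 of the Derlin-2 line for 3 of the 10 genes, Per3, Arntl and Nr1d1, against 18.6% of all genes, and below them for 1, Dbp, against 16.3%. Per3 showed it with each of its 3 probes, which were higher in the Derlin-1 line by 0.72, 0.68 and 0.99, against a median absolute difference between the lines of 0.22 over all genes. Over the 25 clock probes with a value on every array, 6 lay above and 1 below in this way, against 19.9% and 15.3% of all probes. The brightest Per3 probe ranged from 8.98 to 9.63 in the Derlin-1 line and from 8.45 to 8.81 in the Derlin-2 line. In the controls alone the 3 probes differed by 0.93, 0.60 and 1.06.

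Arntl ranged from 9.95 to 10.32 in the Derlin-1 line and from 9.53 to 9.71 in the Derlin-2 line, a difference of 0.48. Dbp ranged from 13.92 to 14.15 and from 14.27 to 14.38, a difference of -0.24. The Nr1d1 difference was 0.21. These differences of the brightest probes went in both directions and carry no test, because slide and line cannot be told apart. The second Dbp probe differed by -0.13, with overlap of the lines. Of the other Arntl probes, A_66_P127371 differed by 0.055 and the dim A_52_P24690 by 0.75, both with overlap. A_55_P2735445, without a value on Derlin-2 control 2, differed by 0.45. With the deposited log2 values it differed by 0.031, with overlap of the lines, and the brightest Arntl probe by 0.49. The brightest Arntl probe lies in the last eighth of the array's rows. Some cell type markers differed between the lines as well. The summed linear signal of the 6 granule neuron markers was 33336 to 44771 on Derlin-1 arrays against 26359 to 28467 on Derlin-2 arrays, and that of the 4 astrocyte markers was 21675 to 23571 and 16452 to 17807. Other sums lay the other way, with the 4 microglia markers at 21048 to 25246 on Derlin-1 arrays and 25942 to 31005 on Derlin-2 arrays, and the 5 choroid plexus markers at 1370 to 1681 and 1910 to 4737. Sums of the CA pyramidal, oligodendrocyte, endothelium and blood markers overlapped between the lines. A sum weighs the brightest markers most. Of the microglia markers Csf1r alone was separated between the lines, while Cx3cr1, P2ry12 and Tmem119 overlapped. So did Aldh1l1 and Aqp4 of the astrocyte markers, Kcnj13 and Kl of the choroid plexus markers, and Tdo2 and Calb1 of the granule neuron markers. The part of these markers in the line differences of the clock genes was not tested.

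The spread between replicate arrays of the clock genes lay on both sides of the median of all genes. The pooled SD within groups ran from 0.056 for Nr1d1 to 0.232 for Per3, which lay at the 7.97th and 72.5th percentile of all genes. Per2 had 0.187, Cry1 0.166, Arntl 0.159 and Per1 0.116. Dbp had 0.089, Cry2 0.088, Clock 0.097 and Nr1d2 0.102, each below the median of all genes.

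Likeness to Dbp was measured as Pearson's r over the 8 arrays after the mean of each line was subtracted, among 19674 genes, and is a description. Among the genes most like it were Gdf9, 4930413G21Rik, Olfr586 and Lrrc29, with r from 0.95 to 0.96. Of the clock genes Nr1d2 came nearest, at rank 421 (r = 0.74), followed by Per1 at rank 1082 (r = 0.63) and Cry2 at rank 2357. Dbp deviated most on Derlin-1 KO 2, by -0.16, against -0.058 to 0.064 on the other arrays. On that array Nr1d2, Per1 and Cry2 were below the line mean as well (-0.13, -0.10 and -0.11). Ranks without it were not computed. Nr1d1 was at rank 7776 (r = 0.13), and Arntl, which cycles in the opposite phase in most tissues, was at rank 14719 (r = -0.26). Of the other genes of the loop Ciart, a repressor of CLOCK and ARNTL, was at rank 162 (r = 0.82). The 4 arrays of a line share a slide and a scan, whose part in these values was not tested.

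None of the 27 other clock genes on the lists passed the test with limma in either line (0 of 11 partners, 0 of 11 modifiers and 0 of 5 outputs), and 1 (Derlin-1) and 2 (Derlin-2) had an unadjusted p below 0.05, where 4.23% and 4.64% of all genes did. Hlf, a relative of Dbp that binds the same D-box, read 11.98 and 11.70 in Derlin-1 control and 11.59 and 11.26 in Derlin-1 KO (-0.42, SE 0.15, unadjusted p = 0.0342, limma). Rorb, an activator of Arntl, was 0.36 higher in Derlin-1 KO (SE 0.35). Npas2, a paralog of Clock, read 5.04 and 4.62 in Derlin-2 control and 4.21 and 4.24 in Derlin-2 KO (-0.61, SE 0.21, unadjusted p = 0.0262, limma), where 1 of the 2 KO arrays was well above background. Rora differed by 0.12 in the Derlin-2 line. These 4 genes were picked because both KO arrays lay on one side of both controls, and none passed after adjustment. Of the 27 other clock genes, both KO arrays lay above both controls for 2 and below for 5 in the Derlin-1 line (16.2% and 17.9% of all genes). In the Derlin-2 line the counts were 10 above and 3 below (17.9% and 14.6% of all genes).

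Among modifiers of clock proteins, Timeless read 8.15 and 8.10 in Derlin-2 control and 8.54 and 8.55 in Derlin-2 KO (0.42, SE 0.13, unadjusted p = 0.0164, adjusted p = 0.749, limma). In the Derlin-1 line Timeless was -0.18 (SE 0.13). Csnk1d, the kinase that marks PER proteins for degradation, was -0.22 (SE 0.11) in Derlin-1 KO. Fbxl21, a ubiquitin ligase subunit that acts on cryptochromes, was 0.24 (SE 0.13) in Derlin-2 KO. Among outputs, Wee1, a cell cycle kinase under E-box control, was -0.22 (SE 0.09) in Derlin-1 KO. Nampt, an enzyme of NAD synthesis, was 0.26 (SE 0.17) in Derlin-2 KO, and Cirbp, a cold-inducible RNA-binding protein, was -0.22 (SE 0.09). No gene named here passed the threshold after adjustment.

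Genes that respond to stress hormone or to neuronal activity were listed because Per1 and other clock genes respond to both. No gene of the 12 glucocorticoid-responsive genes was called by limma, where 0% (Derlin-1) and 0.0353% (Derlin-2) of all genes were. In either line 0 had an unadjusted p below 0.05, where 4.23% and 4.64% of all genes did. Their median difference was -0.087 in Derlin-1 KO and -0.30 in Derlin-2 KO. Of the 12 genes, 10 were lower and 2 higher in Derlin-1 KO, where 11128 of the 19890 genes tested were lower. Derlin-2 KO had 9 lower and 3 higher, where 9446 of the 19810 genes tested were lower. Both KO arrays lay below both controls for 2 of the 12 with Derlin-1, against 17.9% of all genes. With Derlin-2 they did so for 4, against 14.6%. They lay above both controls for 1 gene in each comparison. In Derlin-2 KO, Mt2, a metallothionein, was -0.55 (SE 0.26) and Zbtb16, a transcription factor, -0.37 (SE 0.17). Their control arrays were apart, at 16.36 and 17.06 for Mt2 and 12.53 and 12.79 for Zbtb16, and in both genes Derlin-2 control 2 was the higher, as it was for Per1. In Derlin-1 KO, Fkbp5, a chaperone of the glucocorticoid receptor, was -0.35 (SE 0.16) and Cdkn1a 0.27 (SE 0.42). The part of these genes in the Per1 difference was not tested.

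Of the 12 immediate early genes, 11 were higher in Derlin-1 KO, as were 8761 of the 19890 genes tested, with a median difference of 0.28. Both KO arrays lay above both controls there for 8 of them, against 16.2% of all genes. In Derlin-2 KO the median was 0.024, and 0 of 12 lay above both controls, against 17.9% of all genes. None was called by limma in either line, where 0% (Derlin-1) and 0.0353% (Derlin-2) of all genes were. In the Derlin-1 line 2, Egr2 and Nr4a1, had an unadjusted p below 0.05, against 4.23% of all genes, and 0 in the Derlin-2 line, against 4.64%. Egr2 read 6.58 and 7.15 in Derlin-1 control and 7.55 and 7.63 in Derlin-1 KO (0.73, SE 0.25), and Npas4 was 0.66 higher (SE 0.37). Per1 differed by -0.0026 in the same arrays, and the part of these genes in the Per1 values was not tested.

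Markers of other cell types that moved beside the Derlin-1 comparison were read together with Cry1. All 4 microglia markers were lower in Derlin-1 KO, as were 11128 of the 19890 genes tested. Both KO arrays lay below both controls for 3 of them, against 17.9% of all genes. The summed signal of the microglia markers was 24220 to 25246 in control and 21048 to 22207 in KO. The summed signal of the 5 choroid plexus markers was 1370 to 1538 in control and 1570 to 1681 in KO, with 4 markers higher, whereas Kl was lower in both KO arrays (-0.26, SE 0.14). The sum of the 4 astrocyte markers was 21675 to 22046 in control and 22369 to 23571 in KO, with 2 markers higher and 2 lower. The sum of the 4 endothelium markers was 8273 to 8377 and 8426 to 8713, also with 2 higher and 2 lower. The sum of the granule neuron markers overlapped, at 33336 to 44771 and 34288 to 43065, while C1ql2 alone of the 6 was lower in both KO arrays (-0.54, unadjusted p = 0.0433, limma). Sums of the CA pyramidal, oligodendrocyte and blood markers overlapped too, and Alas2, one of the 2 blood markers measured, was lower in both KO arrays (-0.66, unadjusted p = 0.0261, limma). None of these markers passed after adjustment. The part of these markers and of the immediate early genes in the Cry1 difference was not tested.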

How the data were processed

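Cy3-labelled RNA of the dentate gyrus was hybridised to 8 one-colour Agilent arrays. For each spot the deposited scanner files give an intensity from which Agilent Feature Extraction (version 10.7.1.1, per the labels) had subtracted background and a spatial trend. The deposited tables hold log2 values that the authors quantile-normalized in GeneSpring and set to the median of their samples, and these served for gene symbols and as an alternative. The ratio columns and the signed fold score that the authors deposited, both fold changes of group means, were not used, nor were their log2 differences.

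Here control spots and outlier-flagged spots were left out, processed signals below 1 were set to 1, and log2 values were quantile-normalized, the normalization of the study's methods, and repeat spots were averaged. A model of 4 group means was fitted to all kept probes with limma (version 3.58.1, R 4.3.3; 4 residual and 2.08 prior degrees of freedom). Tests were two-sided and, in the main fit, adjusted by Benjamini-Hochberg over all probes kept, with a threshold of 0.05. Gene counts and percentages take these adjusted values for the brightest probe of each gene. An alternative used normexp (offset 50) on the median signal, since the files used here have no mean signal. The code was tested on simulated data. The genes, lists and tests were chosen with earlier results of these data known. The text names all 10 clock genes, Derl1 and Derl2, genes among the 5 most like Dbp (1 of which is not reported here), and of each other list of clock, glucocorticoid-responsive and immediate early genes up to 2 per line with the largest difference among those whose KO and control arrays did not overlap. Genes named as counts of 2 or fewer, Ciart and the dimmer probes were chosen after their values were seen. The number of arrays limits the precision.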

Additional observations from a re-analysis of the deposited data

Results flagged for a closer look

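In 5 genes named above, none of them among the 10 clock genes first described, both KO arrays lay on one side of both controls in one line and on the other side in the other line. These were picked for this pattern among genes named for non-overlapping arrays, so tests on them are no separate support. The share of all genes with opposite sides was not counted. Within a line, 16.2% of all genes lay above and 17.9% below for Derlin-1, and 17.9% and 14.6% for Derlin-2. The Derlin-1 effect minus the Derlin-2 effect, tested with limma as a difference of contrasts, was -0.47 for Hlf, -0.28 for Csnk1d, -0.60 for Timeless, -0.32 for Wee1 and 0.52 for Nr4a1. None passed after adjustment, with the lowest adjusted p of 0.698 for Nr4a1 and the highest of 0.886 for Csnk1d. Groups of 2 arrays are too small for a test of single outlying arrays.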

How the results depend on the processing

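No clock gene passed the threshold with limma under any of the 16 alternatives, and Cry1 stayed lower in Derlin-1 KO under each of them, between -0.77 and -0.42, with a lowest adjusted p of 0.458. Of the 30 differences of the 10 genes, 20 changed sign under at least 1 alternative and 10 did not. With scaling to the 75th percentile, Nr1d1 was 0.020 (Derlin-1) and Dbp 0.015 (Derlin-2), and with the deposited log2 values they were 0.0089 and 0.016. With normexp, Per1 was 0.088 in the Derlin-1 line and the difference between the effects for Arntl was 0.030. With the mean over all probes of a gene, Per2 was -0.13 and Cry2 0.28 in the Derlin-1 line, Cry2 was -0.15 and Arntl 0.34 in the Derlin-2 line, and the difference between the effects was -0.37 for Per1 and 0.43 for Cry2. The index of clock arms was then -0.18 and -0.31. The cause of these changes was not tested.

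With each array left out in turn, KO minus control in the Derlin-1 line ran for Per1 from -0.10 to 0.10, Per2 from -0.087 to 0.23, Cry2 from -0.14 to 0.037, Arntl from -0.24 to 0.14, Clock from -0.079 to 0.15, Nr1d1 from -0.094 to 0.049, Nr1d2 from -0.15 to 0.049 and Dbp from -0.21 to 0.017. In the Derlin-2 line it ran for Cry1 from -0.029 to 0.41, Cry2 from -0.052 to 0.10, Arntl from -0.11 to 0.033, Clock from -0.0036 to 0.093, Nr1d2 from -0.054 to 0.13 and Dbp from -0.079 to 0.0065. The Derlin-1 effect minus the Derlin-2 effect ran for Cry2 from -0.16 to 0.014, Arntl from -0.19 to 0.18, Clock from -0.12 to 0.10, Nr1d2 from -0.19 to 0.011 and Dbp from -0.17 to 0.053. Without a change of sign but by over 1.5 times, leaving out an array also moved Per3 (-0.47 to -0.024 for Derlin-1, 0.029 to 0.32 for Derlin-2), Per1 and Per2 for Derlin-2 (-0.33 to -0.14 and 0.12 to 0.41), and the difference between the effects of Per1 (0.13 to 0.34), Per2 (-0.35 to -0.035), Per3 (-0.65 to -0.20) and Nr1d1 (0.023 to 0.17). The 3 Per3 differences between the lines, for which alternatives were chosen after seeing the data, stayed above 0 in all of these, the lowest being 0.52 with normexp for the dimmest probe.

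Arrays with the same replicate number correlated in their deviations at 0.27 (Derlin-1) and -0.098 (Derlin-2), and with 2 pairs a line and no shared source in the labels the numbers were not taken as pairs. With the replicate number as a block, 0 of the 10 clock genes were called in either line. The deposited values were normalized by the authors and fitted within each line, so the difference between the effects was not run on them. With 2 arrays a group, the unadjusted 95% intervals of the clock genes reached from 0.24 (Nr1d1) to 0.51 (Per3) log2 units either way. Smaller shifts were not detectable, and larger ones can fail after adjustment, as Cry1 did in the Derlin-1 line (-0.69).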
